A study of Rattus norvegicus with 10 samples.

Results

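Axon guidance ligands and receptors are the secreted and cell-surface proteins that steer growing axons. They are described here in left hippocampi of TgF344-AD female rats that were given ibudilast or left untreated. The members are the semaphorins of classes 3 to 7, the plexins and neuropilins, Slit1 to Slit3 and Robo1 to Robo4, the ephrins and Eph receptors, and the netrins with their receptors Dcc and Unc5a to Unc5d. Among the 17168 genes counted, 60 had such a symbol, and 57 of these reached an estimated count of 10 in at least 5 of the 10 libraries. They comprise 26 semaphorin-plexin, 7 Slit-Robo, 16 ephrin and 8 netrin genes, or 31 ligands and 26 receptors. Efna4, Epha1 and Ntn5 reached a count of 10 in 1, 1 and 3 libraries and are not members. Just inside the rule, Sema3a reached it in 5, Efna5 in 6 and Sema3f in 8 libraries. Sema3a passed through the 5 ibudilast libraries alone, since its untreated counts were 0 to 9. Plxna4 and the other family members outside the count table were not analysed here.

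All 10 rats carried the Alzheimer disease transgenes of the TgF344-AD strain, which are mutant human forms of the amyloid precursor protein and presenilin genes driven by a prion promoter. No wild-type group was part of the comparison. The 5 untreated rats ate rodent chow, and the 5 treated rats ate ibudilast chow for 6 months from 5 months of age. All were perfused under ketamine and xylazine at 11 months, and every library carries the tag of a different animal. Ibudilast is an inhibitor of several cyclic nucleotide phosphodiesterases, and the comparison asks which hippocampal transcripts differ with its use.

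Guidance cues act through 4 classical systems. Secreted class 3 semaphorins bind neuropilins, which signal through plexins, whereas most other semaphorins bind plexins directly. Slits repel axons through Robo receptors, ephrins are membrane-bound partners of the Eph receptor kinases, and netrins attract through Dcc and repel through Unc5 receptors. In the adult hippocampus these proteins remain present at synapses and on blood vessels, and they are known for roles in the layering of mossy fibre and entorhinal inputs and in dendritic spine turnover.

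Total estimated counts per library ran from 6960066 to 10121571. The untreated mean was 7530754 and the ibudilast mean 8569158 (two-sided exact permutation p = 0.0556, n = 5 each). Markers of the tissue itself differed between the groups. Of 11 tested hippocampal principal cell markers 8 were lower and 0 higher with ibudilast, and they summed to between 986 and 2394 CPM untreated and between 431 and 1259.8 CPM treated. CPM here means counts scaled to a common library total with TMM factors. Of 10 neocortex markers 6 were higher and 0 lower, and their summed level was 322 to 458 against 574 to 985 CPM, with no overlap between the groups. Microglia markers were lower in 6 of 7 cases, astrocyte markers in 3 of 7, and 4 of 10 thalamus and striatum markers were higher and 1 lower. Ibudilast 3 held 4146 CPM of cerebellum markers, where the other 9 libraries held 33.7 to 139 CPM. Ibudilast 3 and ibudilast 5 held 1040.4 and 1184 CPM of meninges markers, against 42.8 to 217 CPM elsewhere. Choroid plexus markers summed to 2583 CPM in untreated 1 and to at most 76.8 CPM in the other libraries. These are whole-tissue libraries, so fewer cells of a type and less RNA per cell cannot be told apart.

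**Figure D1:**
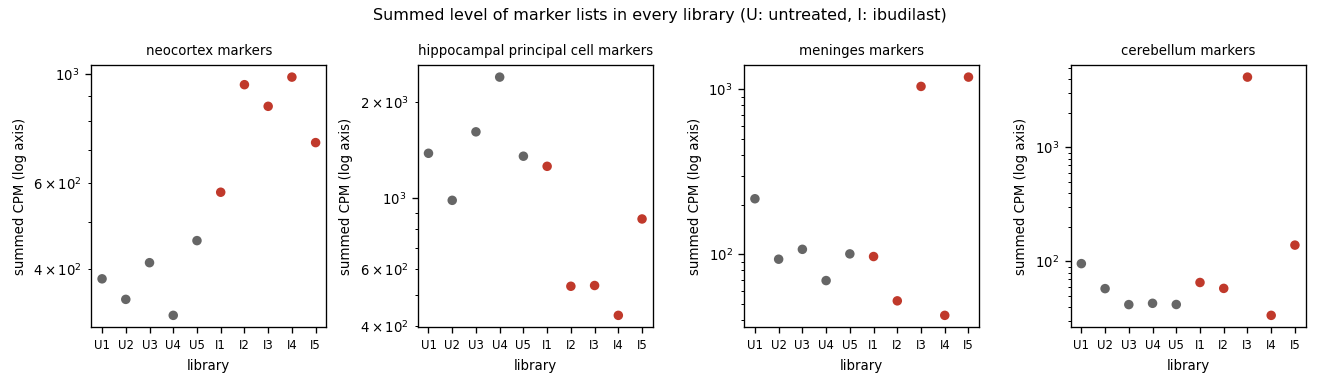
Summed TMM-scaled CPM of 4 marker lists in each library, on log axes (U1 to U5 untreated in grey, I1 to I5 ibudilast in red). The ibudilast libraries lie above all untreated libraries for the neocortex list, and ibudilast 3 stands apart for the cerebellum list.

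Ibudilast 3 was also the extreme library for many members. It held the highest of the 10 values for 14 members and the lowest for 16. Among the first were Plxnb2, Sema3g, Sema4g, Ephb2, Ntn1 and Unc5b, and among the second Slit1, Slit2, Slit3, Epha4, Epha7, Efnb3 and Nrp1. Values without this library are given beside the members whose log2 fold change it moved by over 1.5 times or whose call it ended.

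More guidance genes were higher than lower with ibudilast. Of the 57 members 17 rose, 3 fell and 37 did not pass (edgeR quasi-likelihood test over all tested genes, Benjamini-Hochberg adjusted p under 0.05). The share that rose was 29.8%, where 20.0% of all 11682 tested genes rose, and the share that fell was 5.26%, where 18.5% of all genes fell. Counting both directions, 35.1% of members and 38.5% of all genes passed, a share close to the background. Sema3a, which could enter only through the treated libraries, is 1 of the 17. The median log2 fold change was 0.34 over the members and 0.01 over all tested genes. Of the 31 ligands 10 rose and 2 fell, and of the 26 receptors 7 rose and 1 fell. In 8 members (14.0%) every ibudilast library lay above every untreated library, as in 12.5% of all tested genes. Leaving aside Sema3a, for which the member rule favoured such a pattern, it was 7 of 56, or 12.5%. No member had all ibudilast libraries below all untreated ones, as 11.7% of all tested genes did. Without ibudilast 3, ibudilast 5 and untreated 1 together 14 members rose and 1 fell, 13 of them among the first 20, where 15% of all genes rose and 11.6% fell. Without untreated 1 alone 11 rose and 3 fell (19.3% and 5.26%), where 15.7% of all genes rose and 13.7% fell. Without untreated 5 or ibudilast 4 only 1 fell, where 16.4% and 14.7% of all genes fell.

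**Figure D2:**
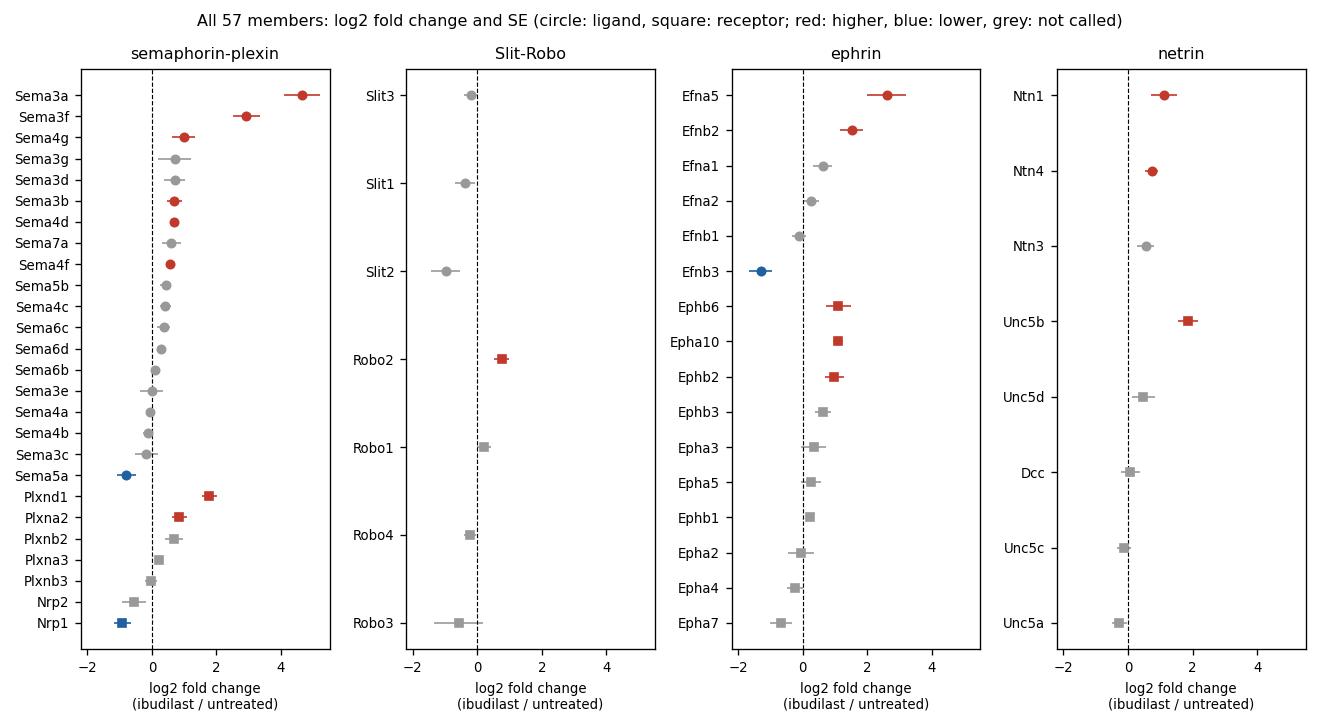
Log2 fold change (ibudilast over untreated) with its standard error for the 57 members in 4 panels by group. Circles are ligands and squares receptors. Red marks the 17 that rose, blue the 3 that fell and grey the rest, and the dashed line is the median of all tested genes, 0.01.

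Over all tested genes the share that rose went from 5.66% in the decile of shortest span to 38.2% in the longest. Guidance genes are long, and 24 of the 57 members lay in the decile of longest tested genes (span in the GRCr8 RefSeq annotation, used as an approximation). In that decile 6 of 24 members rose (25.0%), whereas 38.2% of all its genes did, and the members' median log2 fold change was 0.22 against 0.38. Among the other 33 members 11 rose (33.3%) against 18.2% of all genes in those deciles, with medians of 0.55 and -0.02. With the trend between span and level removed from each library 13 members rose and 6 fell (22.8% and 10.5%), where 15.8% of all genes rose and 18.3% fell. In that fit Robo2, Plxna2, Ephb2, Ntn1 and Ntn4 lost their calls, Sema4c was higher, and Slit2, Slit3 and Epha7 were lower.

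**Figure D3:**
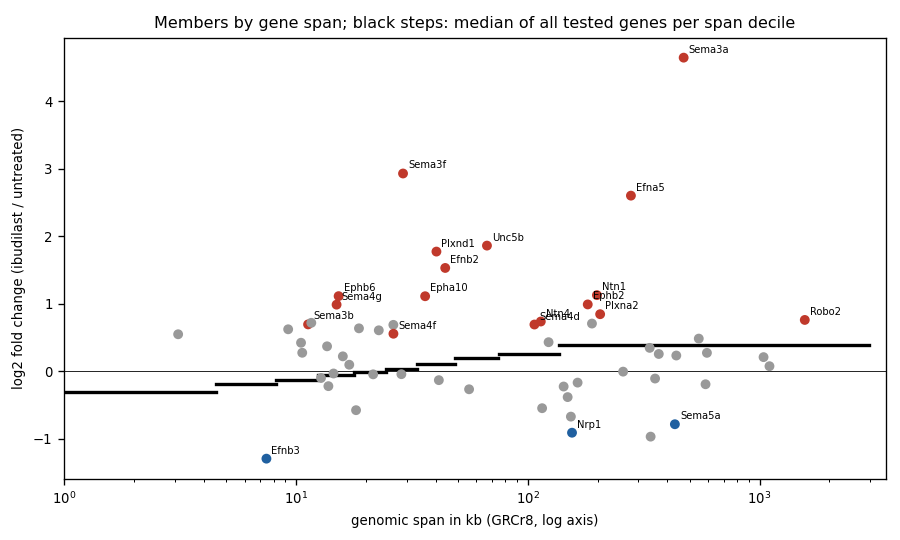
Log2 fold change of each member against genomic span in kb (GRCr8, log axis); black steps are the median of all tested genes in each span decile, from -0.31 to 0.38. Red marks members that rose and blue those that fell. The 17 red points lie above the step at their span and the 3 blue points lie below it.

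Among the members that rose with no overlap and a log2 fold change above 1, RefSeq (GRCr8) promoter entries were matched for Unc5b, Plxnd1, Efnb2 and Epha10. Their 250 bases before the gene start are printed to show what these members do and do not share in sequence. They lie at chr20:29307271-29307520 on the minus strand, chr4:150715188-150715437 on the minus strand, chr16:87484965-87485214 on the plus strand and chr5:142424046-142424295 on the plus strand. Capitals mark the GC box GGGCGG or its reverse complement CCGCCC.
Unc5b: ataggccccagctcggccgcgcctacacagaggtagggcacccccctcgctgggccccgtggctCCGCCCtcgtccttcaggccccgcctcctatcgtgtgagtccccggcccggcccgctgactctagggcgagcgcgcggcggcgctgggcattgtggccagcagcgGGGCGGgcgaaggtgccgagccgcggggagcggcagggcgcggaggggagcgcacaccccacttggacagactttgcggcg
Plxnd1: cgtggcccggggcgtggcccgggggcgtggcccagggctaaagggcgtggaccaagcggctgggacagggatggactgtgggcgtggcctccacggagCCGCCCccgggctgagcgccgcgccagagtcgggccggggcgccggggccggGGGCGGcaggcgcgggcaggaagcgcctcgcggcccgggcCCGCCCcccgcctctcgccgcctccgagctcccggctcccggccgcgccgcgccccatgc
Efnb2: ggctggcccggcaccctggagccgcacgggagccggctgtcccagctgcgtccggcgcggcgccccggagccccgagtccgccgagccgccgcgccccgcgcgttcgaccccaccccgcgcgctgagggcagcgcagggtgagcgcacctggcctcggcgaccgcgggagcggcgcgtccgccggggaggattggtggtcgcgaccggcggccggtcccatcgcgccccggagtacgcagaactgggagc
Epha10: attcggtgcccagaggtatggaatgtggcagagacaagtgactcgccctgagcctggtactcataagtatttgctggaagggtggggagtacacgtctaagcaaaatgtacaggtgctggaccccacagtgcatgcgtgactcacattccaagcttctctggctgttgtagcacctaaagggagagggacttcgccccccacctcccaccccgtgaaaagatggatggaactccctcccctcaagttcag
The GC box occurred 2 times in the Unc5b and 3 times in the Plxnd1 window and was not found in the Efnb2 and Epha10 windows, whose GC contents were 80.4% and 54.4%. Over the 44 members with an entry, 22 windows (50%) held a GC box, against 33.5% of all 27457 genes with an entry. The median GC content was 61.6% over the 45 windows of members and 51.2% over all 33469 windows in the table. The full cyclic AMP response element TGACGTCA, read on both strands, occurred in 1 of 44 members, Epha2, or 2.27% against 1.78% of all genes. Its short core TGACG, which the full element contains, occurred in 7 of 44 (15.9%, against 20.0% of all genes), and 0 of the 11 risen members with an entry held it. The TATA box TATAAA was in 0 of 44 members and 14.1% of all genes, and the E-box CACGTG in 3 of 44 (6.82% against 6.18%). These matches describe letters in the windows, not factor binding. All members were tested genes, whereas the 27457 genes with an entry include genes not tested here. Shares among tested genes alone were not computed.

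The largest log2 fold changes among the members were those of Sema3a (4.65 ± 0.55) and Sema3f (2.93 ± 0.41), followed by the ephrin Efna5 (2.60 ± 0.62, SE). Differences between these genes were not tested. Of the 26 semaphorin-plexin genes 8 rose and 2 fell (30.8% and 7.69%, against 20.0% and 18.5% of all tested genes). The 8 include Sema3a, which met the member rule through the 5 ibudilast libraries alone. Their median log2 fold change was 0.42, but 0.25 without ibudilast 3 and 0.18 without ibudilast 3, ibudilast 5 and untreated 1. Sema3a and Sema3f, both secreted repellents, rose from low levels, and the plexins Plxnd1 and Plxna2 rose, whereas the neuropilin Nrp1 and the transmembrane semaphorin Sema5a fell. Of the 7 class 3 semaphorins 3 rose, Sema3a among them, and of the 6 class 4 semaphorins 3 rose. Classes 5, 6 and 7 held 6 members, of which Sema5a fell and 5 did not pass.

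Sema3a encodes the prototype repellent, which acts through Nrp1 and A-type plexins. It stood at 0.295, 1.1, 0, 0.268 and 0.828 CPM in untreated 1 to 5 and at 4.56, 13.7, 15.3, 17.5 and 14.5 CPM in ibudilast 1 to 5. Only ibudilast 1 was below 10 CPM among the treated libraries, and it still lay above all untreated ones. With at most 9 counts in any untreated library, the member rule required 10 counts in all 5 ibudilast libraries. The lack of overlap therefore follows largely from that rule. Sema3a had a log2 fold change of 4.65 ± 0.55 (SE; adjusted p = 0.000688 by edgeR), and 4.34 to 5.18 with 1 library left out. Sema3f encodes a repellent that prefers the neuropilin Nrp2. Its values were 3.39, 3.3, 0.82, 1.21 and 2.34 CPM in untreated and 8.21, 16.1, 28.7, 15.5 and 16.2 CPM in ibudilast libraries, again with ibudilast 1 the lowest treated one. On the log2 scale the change was 2.93 ± 0.41 (SE; adjusted p = 0.00103 by edgeR), or 2.66 without ibudilast 3, its highest library.

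Nrp1, the co-receptor for Sema3a and also for VEGF, stood at 43, 34.4, 50.3, 60.9 and 66.5 CPM in untreated 1 to 5 and 43.9, 24.9, 15.2, 20.2 and 31.3 CPM in ibudilast 1 to 5. Ibudilast 1 lay within the untreated range and the other 4 treated libraries lay below it. Nrp1 had a log2 fold change of -0.91 ± 0.27 (SE; adjusted p = 0.022 by edgeR), and -0.75 without ibudilast 3. The call was lost without untreated 5 or ibudilast 4, with values from -1.16 to -0.75 over the 10 fits with 1 library left out. Nrp2 lay at 24.8 to 52.3 CPM untreated against 10.8 to 45.2 CPM treated and did not pass (log2 fold change -0.55 ± 0.38, SE; adjusted p = 0.272 by edgeR), with -0.38 without ibudilast 3. Summed endothelial and mural markers, among them cells in which Nrp1 is known to act, were 262 to 370.2 CPM untreated and 195 to 312 CPM with ibudilast, and 3 of 9 of them fell and 0 rose. Their part in the Nrp1 difference was not tested.

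**Figure D4:**
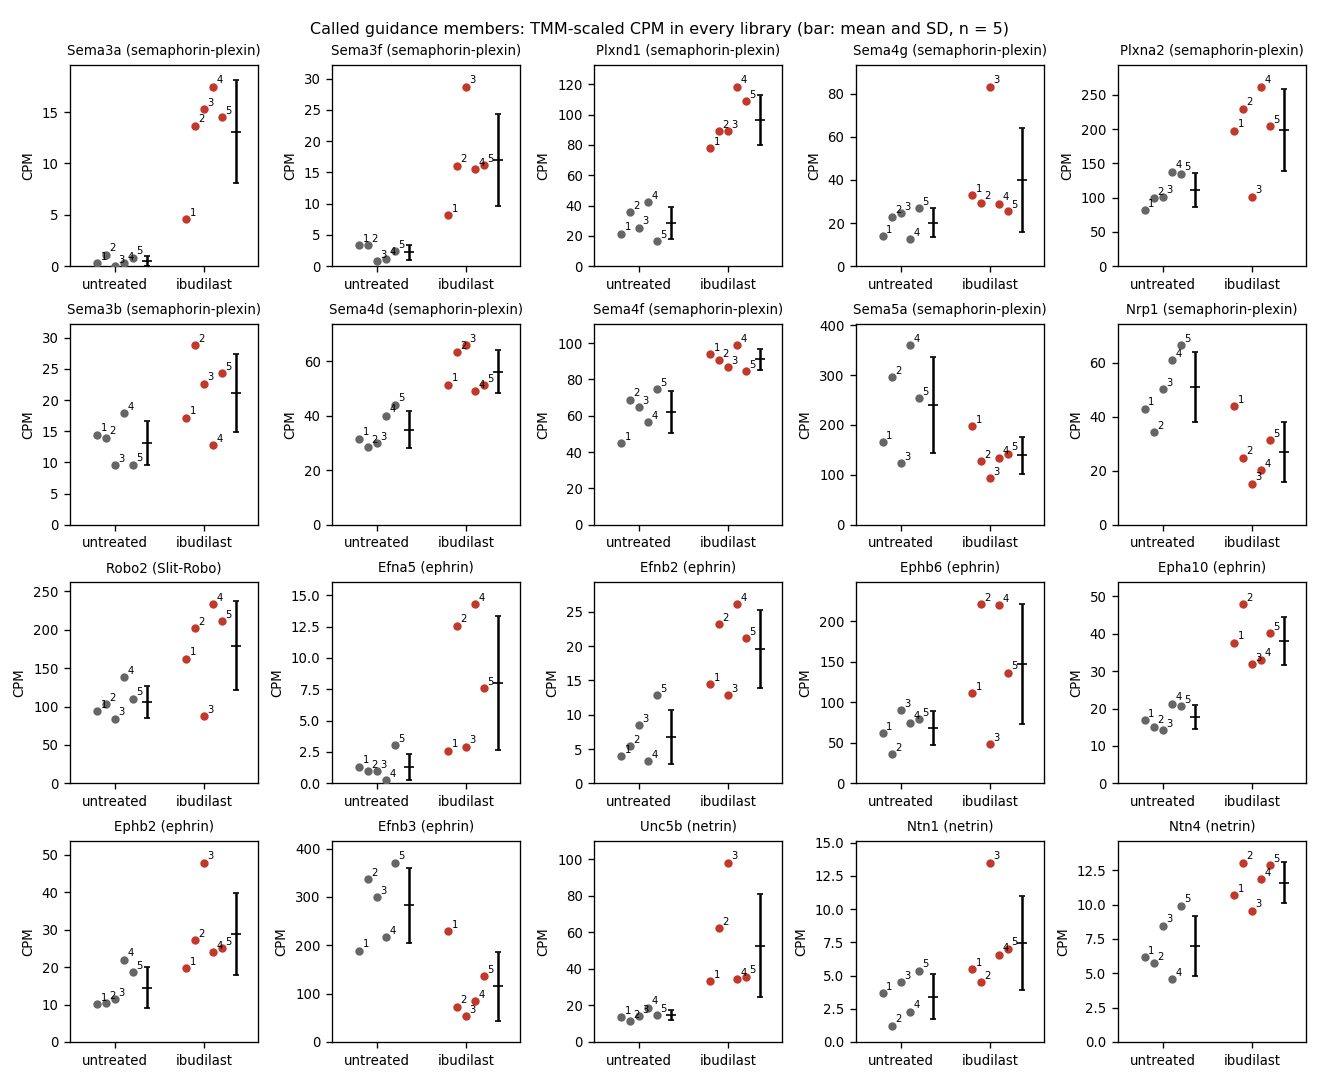
TMM-scaled CPM of the 20 called members in each library (points numbered by replicate, grey untreated, red ibudilast; bars show mean and SD, n = 5 each). Sema3a, Sema3f, Plxnd1, Sema4d, Sema4f, Efnb2, Epha10 and Unc5b do not overlap between groups, and ibudilast 3 is apart for Sema4g, Ephb2 and Ntn1.

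Plxnd1, a plexin that binds Sema3e directly and is known from vascular and synaptic patterning, rose in every treated library. It stood at 21.5, 35.5, 25.4, 42.3 and 16.7 CPM in untreated and 77.9, 89.1, 89.1, 118 and 109 CPM in ibudilast libraries. The lowest treated value was well above the highest untreated one, and the log2 fold change was 1.77 ± 0.23 (SE; adjusted p = 0.000926 by edgeR). Its ligand Sema3e did not pass, at 16.9 to 47.2 CPM untreated and 16.8 to 50.4 CPM treated (log2 fold change -0.01 ± 0.34, or 0.17 without ibudilast 3). Plxna2, a receptor for class 6 and, with neuropilins, class 3 semaphorins, had untreated values of 81.5, 99.3, 101, 138 and 135 CPM. The treated values were 198, 230.0, 101, 262 and 205 CPM. Here 4 treated libraries lay above all untreated ones and ibudilast 3 lay within their range. The fitted log2 fold change was 0.84 ± 0.23 (SE; adjusted p = 0.0158 by edgeR), and 1.02 without ibudilast 3.

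The plexins that did not pass were Plxna3, Plxnb2 and Plxnb3, with log2 fold changes of 0.22 ± 0.13, 0.69 ± 0.27 and -0.04 ± 0.19 (SE). Plxnb2, a receptor for class 4 semaphorins, reached 265 CPM in ibudilast 3, where the other 9 libraries held 76.9 to 128 CPM. In log2 terms the change was 0.33 without that library.

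Class 4 semaphorins are transmembrane ligands. Sema4d, a plexin-B ligand made by oligodendrocytes among other cells, stood at 31.5, 28.6, 29.8, 40.0 and 44 CPM untreated and 51.3, 63.3, 65.8, 48.9 and 51.3 CPM with ibudilast. All treated values exceeded the untreated ones by a modest margin, and the log2 fold change was 0.69 ± 0.14 (SE; adjusted p = 0.00433 by edgeR). Sema4f, a semaphorin found at postsynaptic sites, had 45.1, 68.8, 64.7, 56.6 and 74.6 CPM untreated and 94.1, 90.6, 86.8, 98.8 and 84.6 CPM treated, again without overlap (log2 fold change 0.55 ± 0.12, SE; adjusted p = 0.00619 by edgeR). Sema4g had 13.8, 22.9, 24.6, 12.6 and 27 CPM untreated and 32.8, 29.4, 83.2, 29 and 25.6 CPM treated. Ibudilast 5 lay below untreated 5, and ibudilast 3 stood apart at the top. The log2 fold change was 0.98 ± 0.35 (SE; adjusted p = 0.0453 by edgeR), but 0.54 without ibudilast 3, and the call was lost without untreated 1, 2, 3 or 4 or ibudilast 2 or 3 (range 0.54 to 1.14). Sema4a, Sema4b and Sema4c did not pass, with log2 fold changes of -0.05 ± 0.12, -0.13 ± 0.14 and 0.42 ± 0.16 (SE). Without ibudilast 3 Sema4a was at 0.03 and Sema4c at 0.27.

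Sema3b, a secreted neuropilin ligand, stood at 14.4, 14, 9.57, 17.8 and 9.66 CPM untreated and 17.2, 28.8, 22.6, 12.8 and 24.4 CPM with ibudilast. Ibudilast 1 and ibudilast 4 lay within the untreated range. Its log2 fold change was 0.69 ± 0.24 (SE; adjusted p = 0.0405 by edgeR), and the call was lost without untreated 1, 2, 3 or 5 or ibudilast 2, 3 or 5 (range 0.56 to 0.83, with 0.68 without ibudilast 3). Of the remaining class 3 genes, Sema3c, Sema3d and Sema3g had log2 fold changes of -0.17 ± 0.35, 0.70 ± 0.33 and 0.72 ± 0.51 (SE) and did not pass, and Sema3c was at 0.08 without ibudilast 3. Sema3g, which is known from endothelial cells, stood at 109 CPM in ibudilast 3 and 16.5 to 29.4 CPM in the other 9 libraries, so its value turned from 0.72 to -0.22 without that library.

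Sema5a, a transmembrane semaphorin with thrombospondin repeats that is known from dentate granule cells and oligodendrocyte lineage cells, stood at 166, 296, 123, 359.6 and 254 CPM in untreated 1 to 5. In ibudilast 1 to 5 it stood at 197, 127, 92.9, 135 and 143 CPM. Untreated 2, 4 and 5 lay above all treated libraries, whereas untreated 1 and 3 lay among them. On the log2 scale the change was -0.79 ± 0.28 (SE; adjusted p = 0.0458 by edgeR), and the call was lost without untreated 2, 4 or 5 or ibudilast 2, 3, 4 or 5 (range -0.95 to -0.60, with -0.67 without ibudilast 3). Oligodendrocyte precursor markers, of which 3 of 6 fell and 0 rose, summed to 369 to 431 CPM untreated and 247 to 352 CPM treated. Untreated 1 and 3, the lowest untreated libraries for Sema5a, held 422 and 431 CPM of them. The granule cell marker C1ql2 fell, at 42.1, 149, 49.8, 121 and 86.2 CPM in untreated 1 to 5 and 5.63 to 72.7 CPM treated. Prox1, another such marker, did not pass, at 11.2, 41.9, 13.5, 56.2 and 46.5 CPM untreated and 8.9 to 27.5 CPM treated. The part of either cell type in the Sema5a difference was not tested. Sema5b, Sema6b, Sema6c, Sema6d and Sema7a did not pass, with log2 fold changes between 0.09 and 0.60. Without ibudilast 3 Sema6b went from 0.09 to 0.16 and Sema6c from 0.37 to 0.15. Sema7a, a membrane-anchored integrin ligand, was at 307 CPM in untreated 4 and 109 to 153 CPM in the other untreated libraries.

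With the neocortex marker score as a covariate Sema3a, Sema3f, Plxnd1 and Sema4g still passed in this group, with log2 fold changes of 4.28, 3.23, 1.68 and 1.78. In the same fit Plxna2 had a value of 0.03 and did not pass, nor did Nrp1, Sema5a, Sema3b, Sema4d and Sema4f. Plxnb2, Sema3g and Sema6c passed there as higher, with values of 1.48, 2.19 and 1.01. Ibudilast 3 had the lowest neocortex score of the treated libraries and the highest CPM of these genes, of Sema4g and of Sema3f. Without it and with no covariate, Plxnb2, Sema3g and Sema6c were at 0.33, -0.22 and 0.15 and did not pass. Sema4g was at 0.54 there and did not pass, and Sema3f was at 2.66 and passed. Every treated score lay above every untreated one, so this fit cannot tell treatment from the score. The covariate fit without ibudilast 3 was not tested.

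The Slit-Robo genes held a single change. Robo2 rose, 0 of the 7 members fell and 6 did not pass (14.3% and 0% rose and fell, against 20.0% and 18.5% of all tested genes). Their median log2 fold change was -0.22, and from -0.31 without untreated 1 to -0.12 without untreated 3 over the fits with 1 library left out. Of the 7, 1 had an unadjusted p under 0.05 by edgeR, and limma-voom and DESeq2 likewise called 1 higher and 0 lower. Robo2, a receptor that sets the crossing and lateral position of axons and is present at CA1 synapses, stood at 94, 103, 84.1, 138 and 110.5 CPM in untreated and 162, 202, 87.1, 234 and 212 CPM in ibudilast libraries. Ibudilast 3 was second lowest of all 10, and the other 4 treated libraries lay above all untreated ones. The fitted log2 fold change was 0.76 ± 0.24 (SE; adjusted p = 0.0266 by edgeR), and 0.94 without ibudilast 3. The call was lost without untreated 1, 2 or 3 or ibudilast 2, 4 or 5 (range 0.64 to 0.94), and the value was -0.12 with the neocortex score as a covariate and 0.08 with the span trend removed.

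Robo1, its close relative, overlapped throughout, at 27.4, 21.2, 35.3, 39.1 and 50.1 CPM untreated and 41.8, 38, 36.8, 33.4 and 49.4 CPM treated (log2 fold change 0.21 ± 0.21, SE; adjusted p = 0.447 by edgeR). Robo4, an endothelial receptor, had a log2 fold change of -0.22 ± 0.18 (SE). Robo3, known from commissural and habenular neurons, had one of -0.58 ± 0.75, or -0.28 without ibudilast 3. It reached 67.1 CPM in untreated 4, against 1.46 to 22 CPM in the other 9 libraries.

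Slits, the ligands of Robo, had lower means with ibudilast, but 0 of 3 passed. Slit1 stood at 122, 142, 188, 161 and 209 CPM untreated and 193, 118, 43, 127 and 149 CPM treated. Ibudilast 3 lay far below the rest, which overlapped, and the log2 fold change was -0.39 ± 0.31 (SE; adjusted p = 0.343 by edgeR), or -0.16 without ibudilast 3. Slit2 means were 86 ± 41 and 43.8 ± 20.7 CPM (SD, n = 5 each), with 9.46 CPM in ibudilast 3, and Slit3 means were 78.8 ± 22.2 and 68.8 ± 14.4 CPM. The log2 fold changes of Slit2 and Slit3 were -0.97 ± 0.45 and -0.20 ± 0.21 (SE), or -0.71 and -0.07 without ibudilast 3. With the span trend removed both passed as lower, at -1.41 and -0.68.

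Ephrins and Eph receptors divided by member. Of 16 genes 5 rose, 1 fell and 10 did not pass (31.2% and 6.25% rose and fell, against 20.0% and 18.5% of all tested genes). The median log2 fold change was 0.31. The median was 0.51 without ibudilast 3, 0.46 without untreated 4, and 0.23 without untreated 3, the lowest of the 10 fits. The ligands Efna5 and Efnb2 rose and Efnb3 fell, and the receptors Epha10, Ephb2 and Ephb6 rose.

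Efna5, an ephrin held in the membrane by a lipid anchor, had low levels. Its values were 1.33, 0.979, 0.957, 0.268 and 3.03 CPM in untreated 1 to 5 and 2.61, 12.6, 2.93, 14.3 and 7.58 CPM in ibudilast 1 to 5. Ibudilast 1 and ibudilast 3 stayed below untreated 5, and ibudilast 2, 4 and 5 lay above all untreated libraries. In log2 terms the change was 2.60 ± 0.62 (SE; adjusted p = 0.00773 by edgeR). It was 0.27 with the neocortex score as a covariate, where it did not pass. The 3 treated libraries with the highest Efna5 values, ibudilast 4, 2 and 5, also had the 3 highest neocortex scores. They were the 3 highest treated libraries for Efnb2, Ephb6, Plxna2 and Robo2 as well, and the part of tissue makeup was not tested. Efna1 and Efna2, of the same class, had log2 fold changes of 0.62 ± 0.29 and 0.27 ± 0.22 (SE) and did not pass, and Efna2 was at 0.17 without ibudilast 3.

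Ephrin-B ligands cross the membrane and signal in both directions. Efnb2, known from arterial endothelium and from neurons, stood at 3.98, 5.38, 8.48, 3.22 and 12.8 CPM untreated and 14.5, 23.2, 12.8, 26.2 and 21.1 CPM treated. Untreated 5 and ibudilast 3 nearly met, at 12.83 and 12.84 CPM, without overlap. The log2 fold change was 1.53 ± 0.36 (SE; adjusted p = 0.00721 by edgeR). Efnb3, a ligand known from hippocampal pyramidal neurons, had untreated values of 189, 337, 299, 217 and 371 CPM. Its treated values were 229, 73, 52.9, 83.6 and 136 CPM. Ibudilast 1 lay within the untreated range and the other 4 below it. Its log2 fold change was -1.30 ± 0.36 (SE; adjusted p = 0.0171 by edgeR), or -1.10 without ibudilast 3. Efnb1 did not pass, with 11.7 to 22.7 CPM untreated and 11.3 to 22 CPM treated.

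Epha10, a member whose kinase domain lacks activity, rose in all treated libraries. It stood at 16.9, 15.2, 14.2, 21.3 and 20.7 CPM untreated and 37.7, 48, 31.9, 33.1 and 40.1 CPM treated. The groups did not overlap, and the log2 fold change was 1.11 ± 0.15 (SE; adjusted p = 0.00098 by edgeR), with 1.01 to 1.2 when 1 library was left out. Ephb6, the other kinase-inactive receptor, ran from 61.6, 36, 90.0, 74.7 and 79.3 CPM untreated to 111, 221, 48.3, 220.2 and 137 CPM treated. Ibudilast 2 and 4 were far above the untreated libraries, and ibudilast 3 lay among them. On the log2 scale the change was 1.11 ± 0.37 (SE; adjusted p = 0.0368 by edgeR), and the call was lost without untreated 1, 2 or 4 or ibudilast 2, 4 or 5 (range 0.92 to 1.34). With the neocortex score as a covariate it was -0.51, of opposite sign and not called.

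Ephb2, a receptor of ephrin-B ligands at excitatory synapses that binds the NMDA receptor, stood at 10.0, 10.5, 11.5, 22 and 18.6 CPM untreated and 19.8, 27.1, 48, 24 and 25.1 CPM treated. Ibudilast 1 lay below untreated 4, and ibudilast 3 was apart at the top. The fitted log2 fold change was 0.99 ± 0.29 (SE; adjusted p = 0.02 by edgeR), or 0.73 without ibudilast 3, and the call was lost without untreated 1 or 3 (range 0.73 to 1.19). Ephb1 and Ephb3 had log2 fold changes of 0.23 ± 0.13 and 0.63 ± 0.24 (SE), and Ephb3 lay near the threshold (edgeR adjusted p = 0.0527).

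Epha4, a receptor on CA1 dendritic spines that binds both ephrin classes, stood at 306, 231, 320.4, 473 and 344 CPM untreated and 314, 268, 135, 352 and 359 CPM treated. Apart from the low ibudilast 3 the treated values lay within the untreated range. In log2 terms the change was -0.23 ± 0.26 (SE; adjusted p = 0.499 by edgeR), or -0.04 without ibudilast 3. Epha5 and Epha7 had log2 fold changes of 0.25 ± 0.32 and -0.68 ± 0.33, and Epha2 and Epha3 of -0.05 ± 0.40 and 0.34 ± 0.39 (SE), and none of these 4 passed. Without ibudilast 3 the values were 0.44 for Epha5, -0.50 for Epha7, -0.12 for Epha2 and 0.58 for Epha3. Of the 6 called ephrin genes Epha10 and Ephb2 passed with the neocortex score as a covariate, at 0.89 and 1.55. For Ephb2 the highest value was in ibudilast 3, which had the lowest neocortex score of the treated libraries.

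Netrin genes rose in 3 of 8 cases and 0 fell (37.5% and 0%, against 20.0% and 18.5% of all tested genes). Their median log2 fold change was 0.51, and 0.37 to 0.76 with 1 library left out. Those 3 were the only ones of the 8 with an unadjusted p under 0.05 by edgeR, and limma-voom and DESeq2 called the same number in each direction. Ntn1 and Ntn4 among the ligands and Unc5b among the receptors rose, whereas Dcc, Unc5a, Unc5c and Unc5d did not pass.

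Unc5b, a repulsive netrin receptor that is known from vessels as well as neurons, stood at 13.7, 11.3, 14.2, 18.8 and 14.6 CPM in untreated 1 to 5 and 33.4, 62.1, 98.1, 34.4 and 35.6 CPM in ibudilast 1 to 5. Every treated library lay above every untreated one, and ibudilast 3 was highest. The log2 fold change was 1.86 ± 0.31 (SE; adjusted p = 0.00166 by edgeR), or 1.52 without ibudilast 3. With the neocortex score as a covariate it was 2.48 and still passed. Ibudilast 3 had the lowest neocortex score of the treated libraries. That score did not overlap between the groups, so this fit cannot tell treatment from the score.

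Ntn1, the main secreted netrin, stood at 3.68, 1.22, 4.51, 2.28 and 5.38 CPM untreated and 5.47, 4.52, 13.5, 6.57 and 7.01 CPM treated. Ibudilast 2 lay below untreated 5, the other 4 treated libraries lay above all untreated ones, and ibudilast 3 stood apart at the top. Its log2 fold change was 1.13 ± 0.40 (SE; adjusted p = 0.0441 by edgeR), or 0.81 without ibudilast 3, and the call was lost without untreated 1, 2, 3 or 4 or ibudilast 3, 4 or 5 (range 0.81 to 1.38). Ntn4, a laminin-related netrin of basement membranes, had 6.19, 5.75, 8.48, 4.56 and 9.93 CPM untreated and 10.7, 13.1, 9.57, 11.8 and 12.9 CPM treated. Only ibudilast 3 lay below untreated 5, and the log2 fold change was 0.73 ± 0.21 (SE; adjusted p = 0.0178 by edgeR). Ntn3 did not pass (0.55 ± 0.27, SE).

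Dcc, the attractive netrin receptor, overlapped between groups, with 11.5, 10.4, 17.9, 15.3 and 24.1 CPM untreated and 24.9, 13.4, 10.8, 11.7 and 22.4 CPM treated (log2 fold change 0.07 ± 0.29, SE; adjusted p = 0.863 by edgeR). It was 0.21 without ibudilast 3, and its sign changed when some other single libraries were left out. Unc5d stood at 8.84, 21.5, 12.9, 21.9 and 27.7 CPM untreated and 33, 18.1, 12.3, 35 and 31.5 CPM treated, also with overlap (log2 fold change 0.48 ± 0.34, SE; adjusted p = 0.287 by edgeR). Unc5a and Unc5c had log2 fold changes of -0.27 ± 0.24 and -0.11 ± 0.22 (SE), or -0.11 and -0.29 without ibudilast 3.

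With the hippocampal principal cell score as a covariate edgeR called 0 of the 57 members and 2 of all 11682 genes, while 10 members had an unadjusted p under 0.05. That score was itself lower in most treated libraries. Sema3a, Sema3f, Plxnd1, Unc5b and Epha10 had log2 fold changes of 3.38, 1.99, 1.79, 1.64 and 1.31 in that fit. The 3 lower members were at -0.11 (Nrp1), -0.13 (Sema5a) and -0.54 (Efnb3). Drug and tissue makeup cannot be told apart where they move together across these rats.

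The calls of ligands and receptors known to bind each other were mixed. Sema3a rose while Nrp1 fell, Sema3f rose while Nrp2 did not pass, and Plxnd1 rose while Sema3e did not pass. Efnb2 and Ephb2 rose together while Efnb3 fell. Ntn1 and Unc5b rose while Dcc did not pass. These are the calls of each gene, and differences between genes in a pair were not tested.

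**Figure D5:**
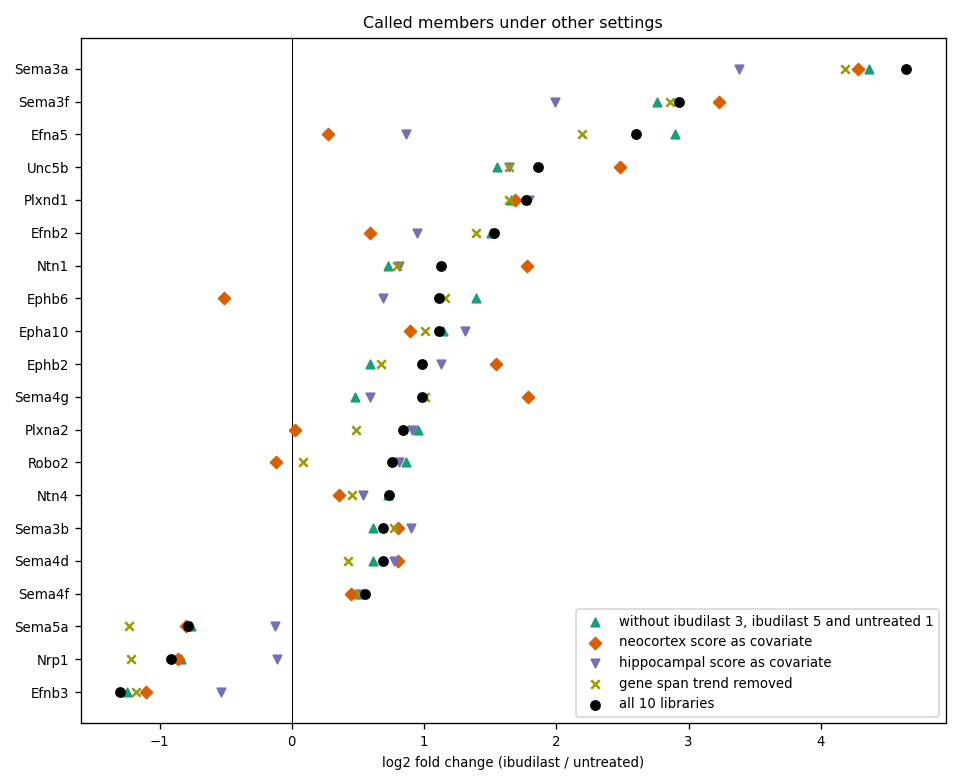
Log2 fold change of the 20 called members with all libraries (black) and in 4 other fits. Sema3a, Sema3f, Plxnd1, Unc5b and Epha10 stay well above 0 in each fit shown, with 0.89 for Epha10 the smallest, whereas Ephb6 and Robo2 fall below 0 with the neocortex score as a covariate.

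Of the wider pathway, 28 other guidance cues and receptors were tested, and 9 rose and 5 fell. Their median log2 fold change was 0.29. Those with the smallest adjusted p among the rises were Flrt1, which encodes an adhesion protein that binds Unc5 receptors and latrophilins, with means going from 18.3 ± 4.2 to 58 ± 12 CPM (SD, 5 libraries a group), plus the adhesion receptor gene Dscam, from 25.1 ± 6.82 to 71 ± 22.2 CPM. Cntn2, a contactin gene, and Fzd3, a Wnt receptor gene needed for axon tracts, rose by 1.55 and 1.49 on the log2 scale. The chemokine gene Cxcl12 and its receptor gene Cxcr4 both fell, with log2 fold changes of -0.95 and -0.70. Flrt3 and the netrin-G gene Ntng2 also fell, at -0.58 and -0.85.

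Among 49 tested intracellular effectors 19 rose and 4 fell. Their median log2 fold change was 0.36. Mical3, of the MICAL family that oxidises actin downstream of plexins, went from 32.5 ± 2.69 to 90.6 ± 17.9 CPM (SD, n = 5 each), whereas its relative Mical1 went from 39.9 ± 5.98 to 11.6 ± 8.08 CPM. Rnd1, a small GTPase that binds plexins, rose by 1.56, Srgap3, a Slit-Robo GTPase-activating protein, by 1.03, and Arhgef12, a signalling protein downstream of plexin-B, by 0.52 on the log2 scale. Cfl1, which encodes the actin-severing protein cofilin, had a log2 fold change of -0.68, Rhoa of -0.31 and Vav3 of -1.23, and these 3 fell. The rising share was 38.8% among effectors and 32.1% among the other cues, against 20.0% of all tested genes. The falls were 4 of the 49 effectors and 5 of the 28 other cues, where 18.5% of all tested genes fell. Both lists were chosen with earlier results of these data known. Their shares were not set against those of genes of like span.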

How the data were processed

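Estimated counts per gene and library were deposited by the authors, made with bcl2fastq 2.17, Bowtie2 2.1.0 and RSEM 1.2.15 on rn6, per the submitters' processing notes. For annotation and strand setting, details were not given in the sources used here. A second deposited table has a signal unit, CPM after TMM scaling, which the notes tie to edgeR. Recomputing it from rounded counts gave the same number within 0.1% for 99.9% of entries, leaving 25 symbols, no member among them, without a partner. Counts were rounded to whole numbers, since 10.6% to 11.3% of them per library had a fraction. Totals per library were 6960066 to 10121571, and precision rests on these and on 5 animals per group.

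The comparison used edgeR 4.0.16 under R 4.3.3 (TMM factors, filterByExpr, quasi-likelihood test, Benjamini-Hochberg adjustment over 11682 genes), which kept all 57 members. A standard error is the log2 fold change divided by the square root of its F statistic. The fit was tested on simulated data. That simulation held no differences in tissue makeup between libraries, so it does not bear on them. No set test was run.

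The members and the marker and pathway lists were chosen with earlier results of these data known, and the promoter motifs after the member values were seen. Members were named by rule: in each group the 6 called genes of smallest adjusted p per direction with a mean of at least 1 CPM, 12 fixed genes, and the remaining called members; of each pathway list up to 4 per direction. Marker scores are mean z-scores of log2(CPM + 0.5). Gene spans came from RefSeq GRCr8 and covered 98.2% of tested genes. Alternatives were other scaling, filters, unrounded counts, DESeq2 1.42.0, limma 3.58.1 (voom on counts, and trend on deposited CPM with log2(value + 0.5)), a replicate block, the animal tag, libraries left out, marker scores as covariates and removal of the span trend.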

Additional observations from a re-analysis of the deposited data

Results flagged for a closer look

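Over the 57 members and both groups, 7 of 114 sets of 5 values held a library apart from the other 4. Its gap to the nearest was above 0.71 of the range. Chance gives about 1 such set in 20 for normally distributed values, so the count of 7 is near that level. The share over all tested genes was not computed. Ibudilast 3 was the library apart in 5 of the 7 sets. Plxnb2 stood there at 265 CPM, Sema3g at 109, Sema4g at 83.2, Ephb2 at 48 and Ntn1 at 13.5 CPM, in each case the highest treated value. Untreated 4 was that library for the other two, Robo3 at 67.1 CPM and Sema7a at 307 CPM.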

How the results depend on the processing

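Totals, scaling and filters moved few calls. The 17 higher and 3 lower members became 14 to 19 and 2 or 3 with other scaling, other filters, unrounded counts, DESeq2, limma-voom and limma-trend, and semaphorin-plexin members called lower became 1 with total counts only, no filter, limma-voom, limma-trend, the animal tag range or the meninges or cerebellum score as a covariate. DESeq2 gave no p-value for 1 member, Sema3g. With only animal tags under 100, 3 rats a group, 1182 genes were higher and 815 lower, and 8 members were higher (4 semaphorin-plexin, 3 ephrin, 1 netrin, 0 Slit-Robo) and 0 lower in any group. Without ibudilast 3, ibudilast 5 and untreated 1, 1357 genes were lower, as was 1 member (0 semaphorin-plexin), and 1 netrin member was higher. With the neocortex score as a covariate 875 genes were higher and 272 lower, and 10 members were higher (2 ephrin, 1 netrin, 0 Slit-Robo) and 0 lower. With the hippocampal score edgeR called 2 genes higher and 0 lower, with 2453 at an unadjusted p under 0.05, and 0 members in any group or direction, with 10 at an unadjusted p under 0.05. With the span trend removed 6 members were lower (2 Slit-Robo, 2 ephrin), 0 Slit-Robo members were higher and 1 netrin member was.

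With 1 library left out, all genes called ran from 1843 to 2573 higher and 1615 to 2284 lower, members from 11 to 19 and 1 to 3, semaphorin-plexin members from 6 to 10 and 0 to 2, ephrin members from 3 to 6 and 1 to 1, netrin members from 2 to 4 higher and Slit-Robo members from 0 to 1. For the total count per library the difference in means ran from 650301 to 1292243, with p = 0.0317 without untreated 2 and 0.0238 without ibudilast 1 (exact permutation).

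Among the genes given library by library, changes of sign were seen for Dcc (log2 fold changes of -0.12 to 0.30 with 1 library left out, among them -0.02 without untreated 1, -0.05 without untreated 2, -0.12 without ibudilast 1, -0.06 without ibudilast 5, -0.022 without the 3 libraries named above, and -0.47 with the span trend removed), Robo1 (-0.32 with the span trend removed), Ephb6, Robo2 and Unc5d (-0.51, -0.12 and -0.089 with the neocortex score), and Epha4 and Slit1 (0.14 and 0.11 with the hippocampal score). None was called in those fits, and the cause was not tested.

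Replicate numbers did not pair the rats: same-numbered libraries had deviations correlated at -0.133 to 0.0212, and 0 of 10 libraries correlated best with its own number. With the replicate block edgeR called 3535 genes and 17 members, with 1 semaphorin-plexin member lower.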
